A study of Homo sapiens with 4 samples.

Results

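The genes described here are 59 genes of the long arm of chromosome 13, listed between UFM1 and FARP1 (chr13:38349849-98455176 on the human genome build GRCh38, a span of 60.1 Mb), out of 33538 genes in each count matrix. The list was chosen by its shift in RES-A: the region was picked because its genes as a group, though not each of them, were lower in RES-A than in LNCaP. Every value that involves RES-A is therefore a description and carries no test. LNCaP is an androgen-sensitive cell line from a human prostate cancer metastasis, and enzalutamide (ENZ) is a drug that blocks the androgen receptor. RNA of single cells was sequenced (scRNA-seq) in 4 libraries, 1 per group. LNCaP was parental LNCaP kept for 48 h in 0.1% DMSO, the solvent of the drug. LNCaP-ENZ48 was the same line after 48 h in 10 µM ENZ. RES-A and RES-B are ENZ-resistant lines derived from LNCaP, both kept in 10 µM ENZ. RES-A had been grown in rising doses of ENZ for months, whereas RES-B came from long exposure to the related compound RD-162. All 4 groups therefore share the LNCaP origin, each resistant line stands for 1 derivation, and line, time in culture and drug cannot be told apart in RES-A and RES-B. With 1 library per group, no difference has a replicate check and no test between groups was run.

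Genes that are neighbours on a chromosome arm mostly have unrelated functions, and their RNA levels are set by their own promoters, by the surrounding chromatin and by the number of copies of the arm in the cell. Cancer cell lines often carry an uneven number of copies of whole arms or of parts of them. DNA copy number was not analysed here, and the counts measure RNA. The listed genes include UFM1, a small ubiquitin-like protein that is attached to other proteins, TPT1, an abundant protein linked to growth and translation, and subunits of complexes whose other subunits are encoded elsewhere in the genome.

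The counts are unique molecular identifiers (UMIs), each standing for 1 captured RNA 3' end, so that they do not scale with gene length. After filtering, the libraries held 1782 to 4569 cells and 50208831 to 60838227 UMIs, and levels are given as CPM, the UMIs summed over the cells of a library and scaled to the same total in every library. LNCaP had the fewest and deepest cells (median 27079.5 UMIs per cell, against 12138 to 13676 in the others). The libraries were of the labelled kind, as 9 to 11 of 12 markers of prostate luminal epithelium stood at 10 CPM or more in each. Of the leukocyte, basal and fibroblast markers, PTPRC, CD3E, KRT5, TP63 and COL1A2 had no UMI in any library. Others of these lists were detected at low levels, with COL1A1 at 1.45 to 3.19 CPM, CD68 at up to 1.01 and KRT14 at up to 0.299. The summed levels of the basal, leukocyte, fibroblast and endothelial lists were 3.21 CPM or lower. Between 2 and 12 cell barcodes were shared by any 2 libraries.

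Of the 59 listed genes, 37 had a mean of at least 10 CPM over the 4 libraries, the minimum used for the comparisons (called expressed below), among 7460 such genes in all. A gene is counted as higher or lower when its log2 CPM ratio is past 0.32 in size. In RES-A, 25 of the 37 expressed listed genes were lower than in LNCaP and 3 were higher, in the contrast that chose them. Over all expressed genes, 23.2% were lower and 25% were higher in that contrast. The median log2 ratio of RES-A to LNCaP was -0.59 for the listed genes and 0.02 for all expressed genes. Ratios of the 37 genes ran from -9.20 for DNAJC15, whose count of 0 in RES-A was set to 3 UMIs, to 0.67 for RNASEH2B. For 28 of the 37 the lowest of the 4 levels was the one in RES-A, compared with 28.2% of all expressed genes. Of the 22 listed genes under the minimum, 14 were lower and 2 were higher, with a median of -0.72, so that 39 of all 59 were lower. No share over all genes under the minimum is given here, so nothing is read from these counts.

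**Figure D1:**
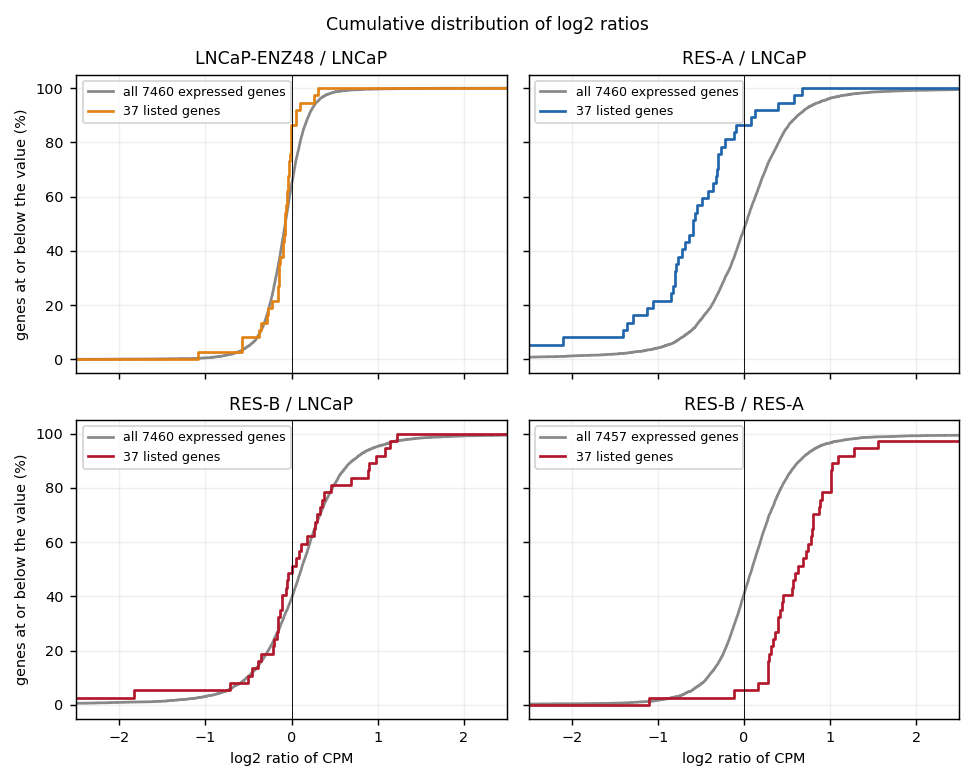
Cumulative distribution of log2 CPM ratios in the 4 comparisons (x axis, log2 ratio; y axis, percent of genes at or below it), for the 37 expressed listed genes (coloured steps) and all expressed genes (grey). The listed genes lie left of the grey curve in RES-A over LNCaP (medians -0.59 and 0.02), right of it in RES-B over RES-A (0.63 and 0.09), and close to it in LNCaP-ENZ48 over LNCaP (-0.07 and -0.07).

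The listed genes that stood at the ends of the range in the resistant lines were DNAJC15, RNASEH2B, DGKH and TSC22D1. DNAJC15, a co-chaperone of the mitochondrial inner membrane (chr13:43023203-43114213, plus strand), stood at 30.7 CPM in LNCaP, 27.7 in LNCaP-ENZ48 and 39.1 in RES-B. It had no UMI in RES-A, neither in the kept cells, where a count of 0 allows up to 0.0523 CPM, nor in all 5156 barcodes of that matrix. Against 3 UMIs in the library, the limit that a count of 0 allows, RES-A was at least 586-fold lower than LNCaP. At 5000 UMIs per cell, 12.96% of LNCaP, 12.03% of LNCaP-ENZ48 and 16.7% of RES-B cells had a DNAJC15 UMI, compared with 0 of 4569 RES-A cells, which allows a share of cells with a UMI of up to 0.0657%. Before thinning to that depth the shares were 53.0, 31.2, 39.4 and 0%.

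RNASEH2B, a subunit of the RNase H2 enzyme that removes ribonucleotides from DNA (chr13:50909747-51024120, plus strand), was the listed gene with the highest ratio in RES-A. Its levels were 36.3 CPM in LNCaP, 34.5 after 48 h of ENZ, 57.9 in RES-A and 77.0 in RES-B. Both resistant lines were above both parental libraries, with log2 ratios to LNCaP of 0.67 (95% interval for counting error, 0.59 to 0.76) in RES-A and 1.09 (1.01 to 1.17) in RES-B. DGKH, a kinase that turns the lipid messenger diacylglycerol into phosphatidic acid (chr13:42040036-42256578, plus strand), stood at 33.5 CPM in LNCaP and 31.8 in LNCaP-ENZ48, compared with 4.90 in RES-A and 2.28 in RES-B. It was low in both resistant lines, at log2 ratios of -2.77 (-2.96 to -2.59) and -3.87 (-4.15 to -3.61), and it was the single expressed listed gene with a clearly lower level in RES-B than in RES-A (-1.10, -1.42 to -0.79). TSC22D1, a leucine zipper protein of the TSC22 family (chr13:44432143-44577147, minus strand), stood at 101.5 CPM in LNCaP, 96.9 after 48 h of ENZ, 80.7 in RES-A and 237.2 in RES-B. RES-A was the lowest and RES-B the highest, at -0.33 (-0.39 to -0.27) and 1.22 (1.18 to 1.27).

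The promoter stretches of these genes are shown because they are the lowest and highest of the list in each resistant line, and because CpG dinucleotides are where promoters can be methylated. Each is from RefSeq (GRCh38.p14), 5' to 3' on the gene's strand, from 250 to 41 bases before the RefSeq start, with CpG in capitals. The stretches are chr13:43023336-43023545 (plus strand) for DNAJC15, chr13:50909428-50909637 (plus) for RNASEH2B, chr13:42039820-42040029 (plus) for DGKH and chr13:44576606-44576815 (minus) for TSC22D1.
DNAJC15: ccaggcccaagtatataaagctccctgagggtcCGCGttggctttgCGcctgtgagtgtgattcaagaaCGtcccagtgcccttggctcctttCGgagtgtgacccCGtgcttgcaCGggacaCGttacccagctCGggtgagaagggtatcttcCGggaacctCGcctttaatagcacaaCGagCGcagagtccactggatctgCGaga
RNASEH2B: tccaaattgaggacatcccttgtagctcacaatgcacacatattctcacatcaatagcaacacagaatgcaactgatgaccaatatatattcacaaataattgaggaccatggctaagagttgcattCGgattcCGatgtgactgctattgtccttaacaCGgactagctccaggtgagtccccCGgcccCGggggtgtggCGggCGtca
DGKH: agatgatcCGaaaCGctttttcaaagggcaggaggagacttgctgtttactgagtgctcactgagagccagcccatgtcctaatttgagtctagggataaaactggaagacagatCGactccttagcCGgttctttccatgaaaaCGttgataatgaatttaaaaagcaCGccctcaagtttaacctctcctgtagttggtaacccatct
TSC22D1: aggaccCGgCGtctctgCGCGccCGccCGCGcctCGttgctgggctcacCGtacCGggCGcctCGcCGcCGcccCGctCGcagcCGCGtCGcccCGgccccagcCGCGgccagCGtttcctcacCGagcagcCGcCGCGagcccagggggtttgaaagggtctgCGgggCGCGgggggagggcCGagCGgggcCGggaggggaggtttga
They held 14, 7, 6 and 33 CpG of 210 bases. The DNAJC15 stretch lies inside the first exon of a longer non-coding transcript of the gene in GENCODE 44. The TSC22D1 stretch also lies inside the annotated span of its gene, whereas those of RNASEH2B and DGKH lie before theirs. Methylation was not measured in these libraries, and 3' counts do not show which start site was used.

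In map order, genes that were lower in RES-A were found in every part of the list, though the shift was not even along it. The members were taken as 3 stretches, divided at gaps of 7.21 Mb between VPS36 and DIAPH3 and of 16.2 Mb between NDFIP2 and UGGT2. The middle stretch itself holds a gap of 12.1 Mb between TDRD3 and MZT1. From UFM1 to VPS36 (chr13:38349849-52450634) there were 45 listed genes, 28 of them expressed, and 19 of the 28 were lower and 3 were higher in RES-A, with a median log2 ratio of -0.56. From DIAPH3 to NDFIP2 (chr13:59665583-79556077) there were 11 listed and 7 expressed genes, of which 5 were lower and 0 were higher, with a median of -0.80. The last stretch, from UGGT2 to FARP1 (chr13:95801580-98455176), held 3 listed and 2 expressed genes, IPO5 at -0.31 and FARP1 at -1.40. The 3 genes that were higher in RES-A, KPNA3, RNASEH2B and VPS36, lay near the end of the first stretch, with the lower genes TRIM13 and INTS6 between them.

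**Figure D2:**
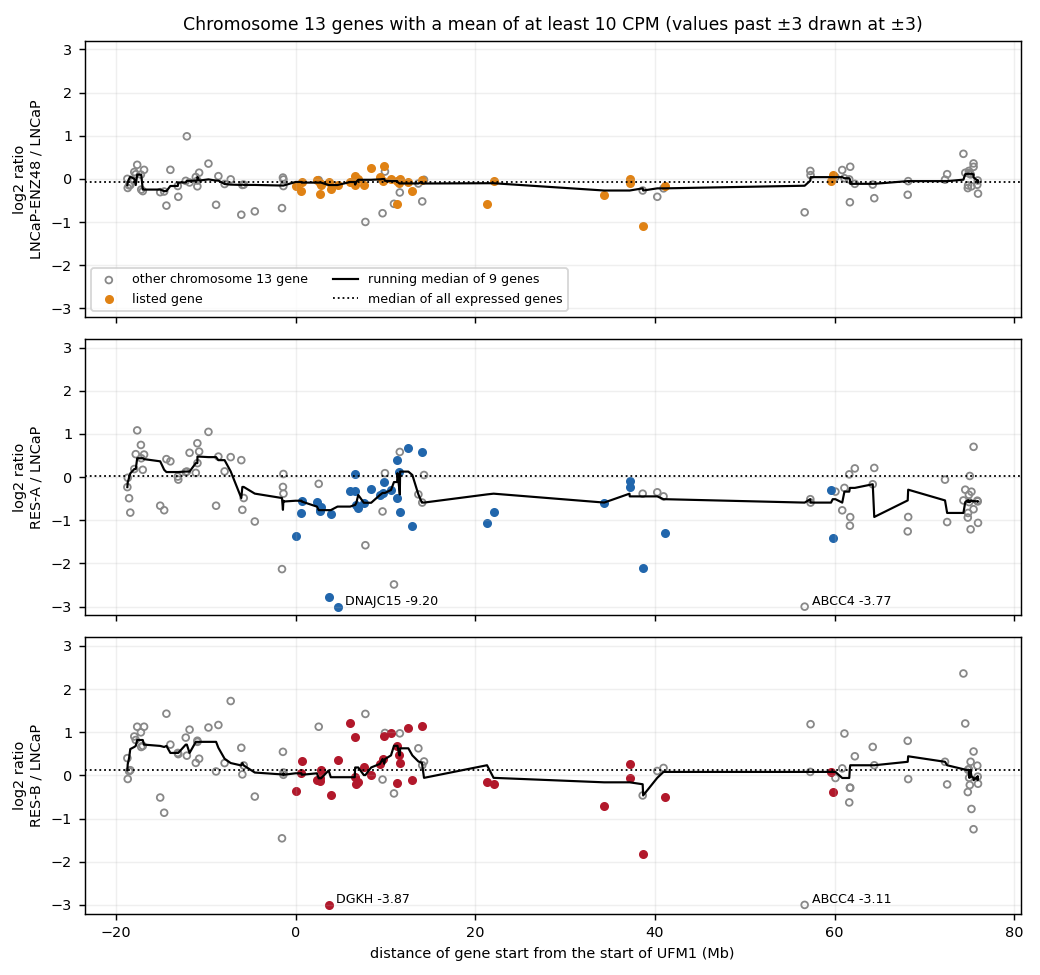
Log2 CPM ratios to LNCaP (y axis) of the 116 expressed chromosome 13 genes by distance of the gene start from UFM1 (x axis, Mb), for LNCaP-ENZ48 (top), RES-A (middle) and RES-B (bottom); filled points are listed genes, open points other genes, the solid line a running median of 9 genes and the dotted line the median of all expressed genes. The RES-A running median is below the dotted line over most of the span from UFM1 onward, apart from the genes around KPNA3 and RNASEH2B, and above it over most of the stretch further before UFM1.

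The limits of the list were not sharp in these data. The nearest expressed genes before UFM1 (-1.36 in RES-A) were SUPT20H at -0.38, EXOSC8 at 0.07 and ALG5 at -0.23, and the nearest after FARP1 (-1.40) were STK24 at -0.34, UBAC2 at -0.77 and TM9SF2 at -0.25. Between UFM1 and FARP1 a further 15 expressed genes are not on the list, and 11 of them were lower and 1 was higher in RES-A, with a median of -0.45. Among these, ABCC4, an exporter of organic anions, stood at 44.6 CPM in LNCaP and 26.1 in LNCaP-ENZ48, compared with 3.26 in RES-A and 5.15 in RES-B. After FARP1, 18 of 27 expressed genes were lower and 1 was higher, with a median of -0.55. Before UFM1, 10 of 37 were lower and 15 were higher, with a median of 0.13. The lower genes among them included those next before ALG5: SMAD9 (-2.13), RFC3 (-1.03), PDS5B (-0.48) and N4BP2L2 (-0.76). BRCA2, before these, was higher (0.39). For the whole chromosome (116 expressed genes) the RES-A median was -0.38, the fourth lowest of 23 chromosomes, after chromosomes 15 (-0.46), 18 (-0.42) and 9 (-0.38).

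TPT1 carried most of the UMIs of the list, between 63.8 and 70.1% of them in each library. It stood at 4195 CPM in LNCaP, 4164 after 48 h of ENZ, 2547 in RES-A and 3748 in RES-B, so that RES-A was the lowest of the 4 (log2 -0.72, -0.73 to -0.71). TPT1 and MRPS31 have near copies elsewhere in the genome, so their counts are uncertain as levels. The listed genes together stood at 6130 CPM in LNCaP and 5943 in LNCaP-ENZ48, compared with 3901 in RES-A and 5873 in RES-B. Without TPT1 the sums were 1935, 1779, 1354 and 2125 CPM. RES-A was the lowest in both sums, whereas RES-B was the highest without TPT1 and between RES-A and LNCaP-ENZ48 with it.

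**Figure D3:**
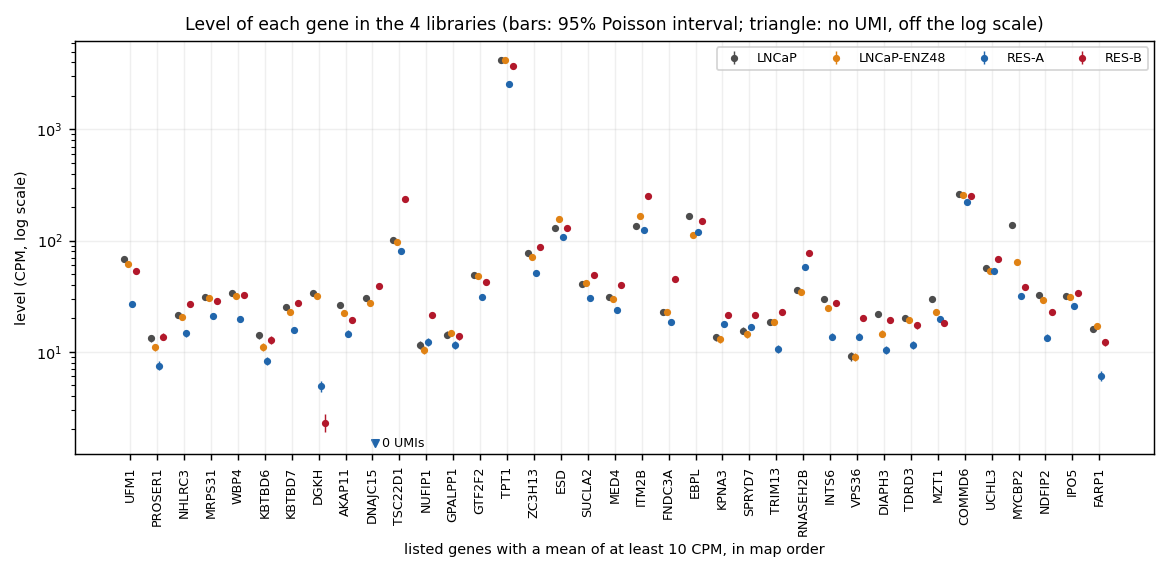
Level of the 37 expressed listed genes (x axis, map order) in the 4 libraries (y axis, CPM on a log scale); points are the summed cells of a library, bars exact Poisson 95% intervals for counting error, and the triangle marks DNAJC15 in RES-A, which had no UMI. RES-A is the lowest of the 4 points for 28 of the 37 genes, while MYCBP2 and DGKH are low in both resistant lines and TSC22D1, ITM2B and RNASEH2B are highest in RES-B.

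Several listed genes belong to the ubiquitin system, which marks proteins for degradation or relocation. UFM1 itself (chr13:38349849-38363619) stood at 68.7 CPM in LNCaP, 61.7 after 48 h of ENZ, 26.8 in RES-A and 53.8 in RES-B. RES-A was the lowest of the 4 (-1.36, -1.45 to -1.27), and RES-B was also below LNCaP (-0.35, -0.42 to -0.28). MYCBP2, a very large E3 ubiquitin ligase, stood at 136.6 CPM in LNCaP and 64.1 in LNCaP-ENZ48, compared with 31.8 in RES-A and 38.5 in RES-B. It was lower in all 3 ENZ-exposed libraries, at -1.09 (-1.15 to -1.03), -2.10 (-2.18 to -2.03) and -1.83 (-1.90 to -1.75). NDFIP2, a membrane adaptor for ligases of the NEDD4 family, stood at 32.7, 29.29, 13.3 and 22.997 CPM (LNCaP first, then LNCaP-ENZ48, RES-A, RES-B), with RES-A the lowest and RES-B next. KBTBD6 and KBTBD7 are neighbouring, similar genes for adaptors of cullin 3 ligases, between which reads may be lost or swapped. KBTBD6 stood at 14.04, 11.01, 8.27 and 12.8 CPM in the same order. KBTBD7 stood at 25.4, 22.98, 15.8 and 27.5 CPM, and both were lowest in RES-A. UCHL3, a deubiquitinase, stood at 57.1, 53.2, 53.3 and 68.1 CPM, and its 3 lower levels lay within 0.32 of each other on the log2 scale. COMMD6, of a family that regulates cullin ligases and endosomal sorting, stood at 260.4, 259.5, 223.7 and 250.3 CPM, with RES-A lowest by less than 0.32 on the log2 scale. The ligase gene TRIM13, whose transcript overlaps KCNRG on the same strand, was lower in RES-A (-0.80) and within 0.32 of LNCaP on the log2 scale in RES-B (0.29).

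Among genes of transcription and RNA handling, RES-A was lower for ZC3H13, a subunit of the RNA m6A methylation complex (-0.59), INTS6 of the Integrator complex (-1.12), WBP4, a spliceosome component (-0.79), GTF2F2, a subunit of the general factor TFIIF (-0.65), TDRD3 (-0.80) and MED4 of the Mediator complex (-0.37). In RES-B the same genes were at 0.18, -0.11, -0.07, -0.21, -0.21 and 0.38. NUFIP1, an RNA-binding protein, did not follow this order: it stood at 11.6 CPM in LNCaP, 10.4 after 48 h of ENZ, 12.2 in RES-A and 21.3 in RES-B. FOXO1, a transcription factor held in check by insulin and AKT signalling, was under the minimum at 3.605, 2.14, 2.01 and 3.29 CPM. PHF11 had 2 UMIs in RES-A and stood at 0.299, 0.509, 0.0349 and 3.88 CPM, so that RES-B was the highest. SETDB2, a SET-domain protein of the histone methyltransferase kind, was also under the minimum, at 9.20, 6.02, 4.36 and 9.63 CPM.

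Among genes of mitochondria and metabolism, MRPS31, a protein of the small mitochondrial ribosomal subunit, was at -0.57 in RES-A and SUCLA2, a subunit of succinyl-CoA ligase, at -0.41. ESD, an esterase of formaldehyde detoxification, stood at 129.98 CPM in LNCaP and 155.1 in LNCaP-ENZ48, compared with 108.1 in RES-A and 130.6 in RES-B, highest after 48 h of ENZ and lowest in RES-A. EBPL, a relative of a sterol isomerase, stood at 167.5, 112.7, 119.8 and 148.8 CPM in the same order, lowest in LNCaP-ENZ48. VWA8, a mitochondrial ATPase, was just under the minimum at 9.94, 8.63, 3.24 and 5.88 CPM.

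Among genes of membrane traffic and transport, COG3 and COG6, subunits of the Golgi complex COG, were under the minimum and lower in RES-A, at 10.7 against 3.94 CPM and at 12.03 against 5.55 CPM in LNCaP and RES-A. VPS36, of the endosomal sorting complex ESCRT-II, stood at 9.16 CPM in LNCaP, 8.94 after 48 h of ENZ, 13.6 in RES-A and 20.3 in RES-B. KPNA3, a nuclear import receptor, stood at 13.4, 12.99, 17.7 and 21.6 CPM. Both were higher in both resistant lines, and highest in RES-B. IPO5, another import receptor, was lowest in RES-A at -0.31, a log2 ratio within the limit. ITM2B, a membrane protein processed in the secretory pathway, stood at 135.0, 166.3, 124.8 and 252.6 CPM, with RES-B above the other libraries (0.90, 0.86 to 0.95) and RES-A slightly below LNCaP (-0.11, -0.16 to -0.07).

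Among genes of signalling, cytoskeleton and mitosis, FARP1, a guanine nucleotide exchange factor, stood at 15.99 CPM in LNCaP and 17.1 in LNCaP-ENZ48, compared with 6.05 in RES-A and 12.2 in RES-B. DIAPH3, a formin that builds actin filaments, stood at 21.7, 14.6, 10.4 and 19.4 CPM, lower after 48 h of ENZ (-0.57) as well as in RES-A (-1.06). In cells called G1 alone the ratio after 48 h was -0.23, and 41 of 47 expressed genes of the G2/M list were lower in LNCaP-ENZ48 (median -0.62), whose part in the DIAPH3 value was not tested. MZT1, a small subunit of the gamma-tubulin complex, stood at 29.6, 22.8, 19.6 and 18.0 CPM, and all 3 ENZ-exposed libraries were below LNCaP. AKAP11, an anchor for protein kinase A, was lower in RES-A (-0.85) and in RES-B (-0.45), and LPAR6, a receptor for lysophosphatidic acid, was under the minimum at 3.53 CPM in LNCaP and 0.663 in RES-A. FNDC3A, a membrane protein with fibronectin domains, stood at 22.8, 22.7, 18.5 and 45.0 CPM, with RES-B the highest. SPRYD7 stood at 15.4, 14.3, 16.8 and 21.3 CPM, again highest in RES-B.

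The other listed genes under the minimum are given in brief. MTRF1, NAA16, SLC25A30, LRCH1, CDADC1 and RCBTB1 were lower in RES-A, with log2 ratios from -1.27 (LRCH1) to -0.61 (MTRF1). WDFY2, DHRS12, ALG11, LMO7 and UGGT2 were within 0.32 of LNCaP on the log2 scale. RCBTB2 was higher, at 0.319 CPM in LNCaP and 0.733 in RES-A. The ALG11 transcript overlaps UTP14C by 8910 bases on the same strand, so its count is uncertain.

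After 48 h of ENZ, the parental line showed little of the RES-A shift. In LNCaP-ENZ48, 5 of the 37 expressed listed genes were lower than in LNCaP and 0 were higher, while 13% of all expressed genes were lower and 4.25% were higher. The 5 were KBTBD6, EBPL, DIAPH3, MZT1 and MYCBP2, and the median of the 37 was -0.07, as for all expressed genes (-0.07). With median-of-ratios size factors in place of CPM, which moved the median of all expressed genes to 0.03, the listed genes stood at 0.03 with 3 lower and 2 higher. Against LNCaP-ENZ48 in place of LNCaP, 24 of the 37 were lower in RES-A and 3 were higher, next to 18.1% lower and 30.7% higher over all expressed genes. The median was -0.48 where that of all expressed genes was 0.10.

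In RES-B, 7 of the 37 were lower than in LNCaP and 11 were higher, next to 17.5% lower and 30.5% higher over all expressed genes. The median was 0.01, compared with 0.11 over all expressed genes. With TMM scaling, which moved the median of all expressed genes to 0.01, it was -0.10. The 7 lower genes were UFM1, DGKH, AKAP11, MZT1, MYCBP2, NDFIP2 and FARP1. Each was also lower in RES-A, in the contrast that chose the list, so nothing is read from this overlap. The 11 higher genes all lay between UFM1 and VPS36, where the RES-B median was 0.15, whereas from DIAPH3 to NDFIP2 3 of 7 were lower and 0 were higher, with a median of -0.21. Set directly against RES-A, RES-B was higher for 29 of the 37 and lower for 1, next to 27.8% higher and 14.4% lower over the 7457 genes with a ratio. The median of this difference was 0.63 for the listed genes and 0.09 for all. Chromosome 13 as a whole had the highest median of the 23 chromosomes in that comparison (0.59, 116 genes), followed by chromosomes 9 (0.47) and 18 (0.46). The comparisons share the LNCaP or the RES-A library, so they are not independent of each other.

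Of the 37 expressed genes, 11 had a counting interval wholly below 0 in RES-A and wholly above 0 in RES-B, both against LNCaP, as had 9.71% of all expressed genes. Low RES-A values had chosen the list, so nothing is read from this count. The genes were NHLRC3, KBTBD7, DNAJC15, TSC22D1, ZC3H13, SUCLA2, MED4, ITM2B, FNDC3A, TRIM13 and UCHL3. No listed gene showed the opposite, next to 5.09% of all expressed genes. The smallest of the RES-B ratios was that of KBTBD7 (0.11), which came to 0.01 with TMM scaling, where 10 of the 37 and 7.74% of all expressed genes met the condition. NHLRC3 stood at 21.5 CPM in LNCaP, 20.4 after 48 h of ENZ, 14.7 in RES-A and 27.1 in RES-B.

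Members that sit head to head, with start sites under 1 kb apart on opposite strands, did not always move together. PROSER1 and NHLRC3 start 217 bases apart, and PROSER1 stood at 13.2, 11.0, 7.48 and 13.7 CPM in the order LNCaP, LNCaP-ENZ48, RES-A, RES-B. Both were lowest in RES-A, at -0.82 and -0.55. NUFIP1 and GPALPP1 start 58 bases apart. GPALPP1 stood at 14.3, 14.8, 11.5 and 13.8 CPM, lowest in RES-A and level with LNCaP in RES-B, where NUFIP1 was higher (0.88, 0.74 to 1.03). COMMD6 and UCHL3, 44 bases apart, were at -0.22 and -0.10 in RES-A and at -0.06 and 0.26 in RES-B. DIS3, the ribonuclease of the RNA exosome, and PIBF1, a protein of centrosomes, start 37 bases apart and were under the minimum. DIS3 stood at 7.79, 8.17, 11.0 and 9.40 CPM, highest in RES-A, and PIBF1 at 3.27, 2.94, 3.21 and 2.85 CPM, with overlapping intervals. BORA, an activator of the mitotic kinase PLK1, starts 120 bases from MZT1 and stood at 1.22, 0.509, 0.872 and 0.723 CPM. BORA and DIS3 overlap by 4030 bases on opposite strands.

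The shift was spread over the RES-A cells. Each cell was thinned to 5000 UMIs, at which the median cell had 30 UMIs of the listed genes in LNCaP, 29 for LNCaP-ENZ48, 19 for RES-A and 29 for RES-B. In RES-A, 97.5% of cells (exact binomial 95% interval, 97.0 to 97.9) were below the LNCaP median, compared with 46.0% of LNCaP, 50.8% of LNCaP-ENZ48 and 50.9% of RES-B cells. The ratio of variance to mean over cells was 1.18 in RES-A and 1.61 to 1.69 in the other libraries, and without TPT1 it was 1.07 in RES-A and 1.23 to 1.26 in the others. RES-A also had the lowest such ratio of the 4 libraries for the genes of 18 of 23 whole chromosomes (TPT1 left out), so this was not particular to the listed genes. Without TPT1 the medians were 9, 9, 7 and 11 UMIs. The shares of cells below the LNCaP median were then 40.2% in LNCaP, 47.6% for LNCaP-ENZ48, 75.2% (73.9 to 76.4) for RES-A and 29.3% for RES-B. Intervals over cells cover only the sampling of cells within 1 library, and cells of a library are not replicates. In cells called G1, S and G2/M by their scores, the RES-A median of the 37 genes was -0.52, -0.51 and -0.55, where all expressed genes stood at 0.05, 0.04 and -0.05.

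**Figure D4:**
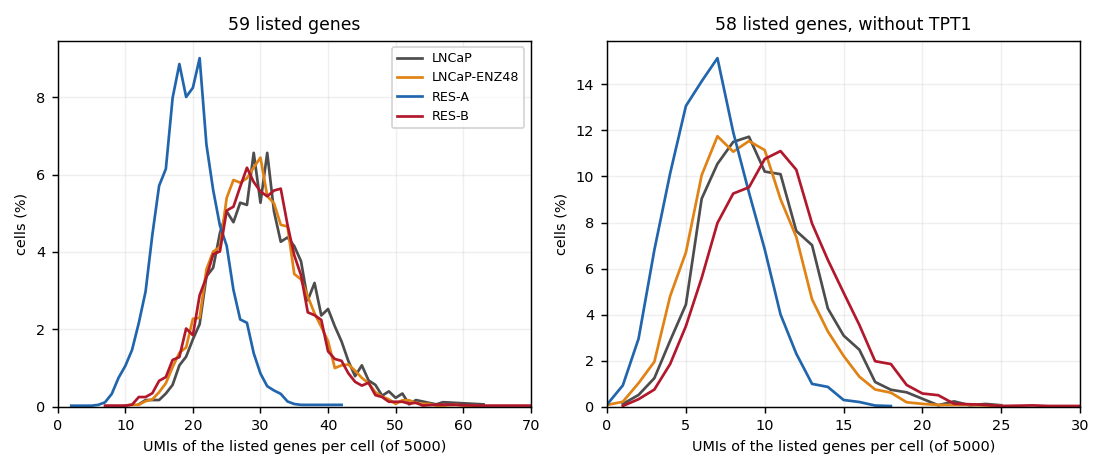
Distribution over cells of the UMIs of the listed genes per 5000 UMIs (x axis) as percent of the cells of a library (y axis), for all 59 genes (left) and without TPT1 (right). RES-A peaks at the left of the other libraries in both panels, with medians of 19 against 29 to 30 UMIs on the left and 7 against 9 to 11 on the right.

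For members of known complexes, the partner genes were examined in 14 lists, 3 of whose genes lie on chromosome 13. Of the 140 expressed partners, 18 (12.9%) were lower and 34 (24.3%) were higher in RES-A, next to 23.2% and 25% of all expressed genes. Their median was 0.07, compared with 0.02 over all expressed genes. The listed genes were chosen by their RES-A values, so nothing is read from their differences to the partners. UFM1 was at -1.36 while its 7 conjugation partners had a median of 0.28, with 0 lower and 3 higher. INTS6 was at -1.12, and 2 of its 10 Integrator partners were lower (median -0.12). ZC3H13 was at -0.59, with 1 of 5 m6A writer partners lower (median -0.02).

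COMMD6 was at -0.22, whereas the 11 genes of its list had 0 lower and 6 higher (median 0.33). MRPS31 was at -0.57, with 2 of 27 partners of the small mitochondrial ribosomal subunit lower and 7 higher (median 0.10). SUCLA2 and the 16 other TCA cycle genes were at -0.41 and 0.07, MED4 and 19 Mediator partners at -0.37 and 0.08, and MZT1 and 7 gamma-tubulin partners at -0.59 and -0.01. KPNA3 and IPO5 were at 0.40 and -0.31 beside 11 importins at 0.03. The 2 ESCRT-II partners of VPS36 had a median of 0.47 (VPS36, 0.57) and RNASEH2C, the expressed partner of RNASEH2B, stood at 0.26. The 4 COG partners had a median of 0.35, the 12 RNA exosome partners of DIS3 one of -0.11, and the 8 FOXO factors and targets one of -0.30. In RES-B, 14 of the 140 partners (10%) were lower and 40 (28.6%) were higher (median 0.15), next to 17.5% and 30.5% of all expressed genes. In LNCaP-ENZ48 14 (10%) were lower and 3 (2.14%) were higher (median -0.05), next to 13% and 4.25%.

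**Figure D5:**
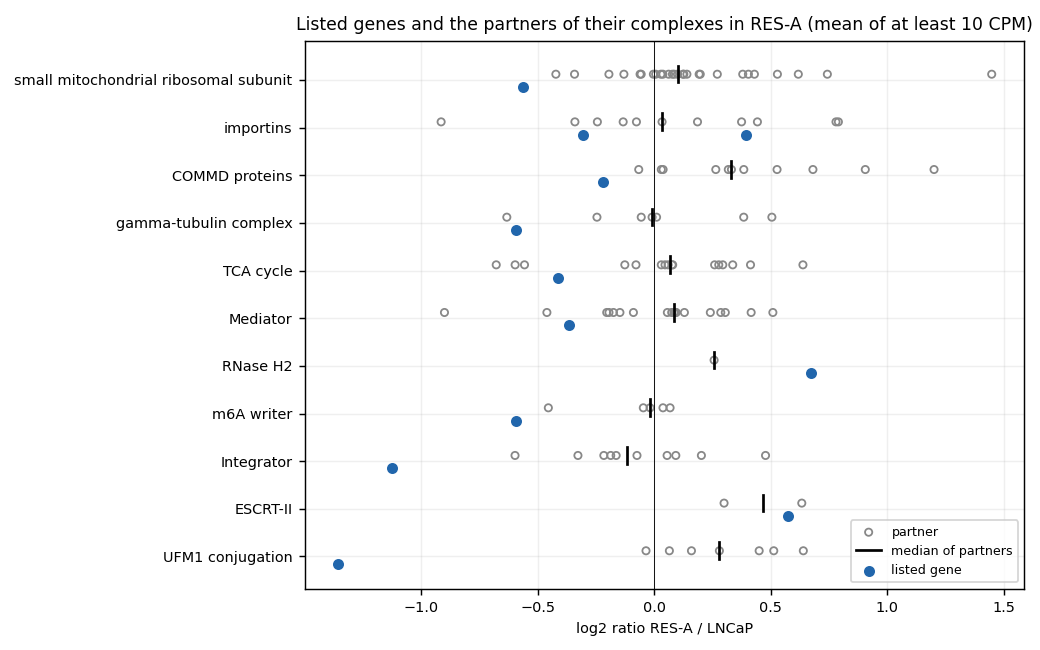
Log2 CPM ratio of RES-A to LNCaP (x axis) of listed genes (filled) and of the expressed partner genes of their complexes or pathways (open), with the median of each partner list (vertical bar). UFM1 and INTS6 (-1.36 and -1.12) lie left of every partner in their rows, and RNASEH2B and VPS36 lie right of 0.

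Promoters from RefSeq (300 bases, 250 before the start and 50 after) were found for 53 of the 59 listed genes. They held a median of 26 CpG and 63.3% GC, next to 27 CpG and 65.7% over the promoters of 5953 expressed genes, and 14 CpG and 58.3% over 27305 promoters in all. The letters TGTTCT, the core of the androgen receptor motif, were present on either strand in 8 of the 53 (15.1%), compared with 8.45% of expressed genes and 14.9% of all promoters. The forkhead letters TGTTTAC were found in 1 (1.89%), which was DGKH, next to 2.20% and 3.41%, and the E-box CACGTG in 3 (5.66%), next to 11.3% and 7.43%. The 53 include listed genes under the minimum. Of the 34 expressed listed genes with a promoter, 7 (20.6%) held TGTTCT, 1 (2.94%) TGTTTAC and 2 (5.88%) CACGTG, with a median of 25 CpG. These matches of letters are not binding sites.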

How the data were processed

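The authors prepared droplet 3' libraries (10x Genomics) of sorted living cells and made UMI counts per gene and barcode with Cell Ranger 3.0.2, which was run on the prebuilt GRCh38 annotation. The deposited values are these counts, unnormalized and with 1 library per group. Groups came from the sample titles and, for LNCaP-ENZ48, from the treatment label. Cells were filtered with the study's limits per library, whose lowest UMI number was 16000 in LNCaP and 5000 in the others, and the highest mitochondrial share 15 to 20%. Kept were 1782 (LNCaP), 4315 (LNCaP-ENZ48), 4569 (RES-A) and lastly 4061 cells (RES-B). Doublets were not removed.

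UMIs were summed over cells and scaled to CPM. Log2 ratios carry exact conditional binomial (Clopper-Pearson) 95% intervals, and a count of 0 was set to 3 UMIs. The intervals of ratios cover counting error only, and their code was tested on simulated data. Alternatives were TMM scaling (edgeR 4.0.16), size factors, other cell filters, cells thinned to 5000 UMIs, cells called G1 (scanpy 1.11.5), leaving out the 5% of cells with the most UMIs, and minimums of 1 and 50 CPM. Coordinates came from GENCODE 44 by gene ID (33113 of 33538 found). The list, the partner lists and the rule for named genes were chosen with earlier results of these data known. That rule took the extremes of level and ratio among expressed listed genes, KBTBD6 and KBTBD7, head to head pairs and the 3 nearest genes on either side, and genes named beyond it were picked with their values in view. The middle stretch starts at DIAPH3, which lies before TDRD3.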

Additional observations from a re-analysis of the deposited data

Results flagged for a closer look

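The resistant lines differed in direction for 11 of the 37 expressed listed genes, whose counting intervals against LNCaP lay below 0 in RES-A and above 0 in RES-B, as did those of 9.71% of all expressed genes. With TMM scaling there were 10 such listed genes, without KBTBD7, and 7.74% of all expressed genes. The difference between the lines was not tested, since each line is 1 library, and the region had been picked for its shift to lower levels in RES-A.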

How the results depend on the processing

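Of the ratios and medians past 0.32 on the log2 scale, none changed direction under any alternative run, with 62 ratios of named listed genes and the medians over groups of genes compared. Of the 54 ratios of named listed genes within 0.32, 19 changed sign under at least 1 alternative. With a minimum of 50 CPM, there were 11 listed genes: 2 were lower in LNCaP-ENZ48, 6 were lower and 1 was higher in RES-A (median -0.33), 2 were lower and 3 were higher in RES-B, and RES-B was higher than RES-A for 7 and lower for 0 (median 0.41), while 4 had intervals below 0 in RES-A and above 0 in RES-B (8 to 13 under the other alternatives, a comparison added after the data were seen). At that minimum the whole chromosome (23 genes) stood at -0.11 in RES-A and 0.35 in RES-B over RES-A, and the genes before UFM1 at -0.011 in LNCaP-ENZ48, 0.44 in RES-A, 0.66 in RES-B and 0.22 in RES-B over RES-A. The blocks between and after the listed genes had too few genes there to give a value. With a minimum of 1 CPM, 9 of 57 listed genes were lower and 1 was higher in LNCaP-ENZ48, 38 were lower in RES-A, 12 were lower in RES-B and 46 were higher in RES-B over RES-A, and the genes after FARP1 stood at 0.00834 in RES-B. These counts follow the number of genes tested. No share of all genes that were lower or higher is given for these minimums or the other alternatives, so the counts are not set against a background. For the opposite intervals the share over all genes was 11.3% at the minimum of 50 CPM and 7.09% at that of 1 CPM.

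With either size factors or TMM, 3 listed genes were lower and 2 were higher in LNCaP-ENZ48. Size factors moved their median there to 0.030, and TMM moved that in RES-B to -0.10. In RES-B the genes before UFM1 then stood at 0.42 with size factors and 0.41 with TMM, and those after FARP1 at -0.048 and -0.056. In cells called G1, RES-B was lower than RES-A for 2 listed genes, the unlisted genes between stood at -0.083 in LNCaP-ENZ48, those after FARP1 at -0.049 in RES-B, and those before UFM1 at 0.39 in RES-B over RES-A. Thinning moved the genes before UFM1 to 0.40 in RES-B and 0.39 in RES-B over RES-A. The log2 ratio of the median UMIs per cell went, without TPT1, to 0 for LNCaP-ENZ48, -0.36 for RES-A and 0.29 for RES-B, and, in cells not thinned, to -0.64 for RES-A and -0.037 for RES-B. The causes were not tested.

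Of 261 values of medians and counts under the alternatives, 218 stayed within their limits and 43 moved. No paired analysis was possible because each group is 1 library, and leaving out a replicate would leave none. Ratios of genes near 1 CPM, such as BORA, are limited by depth.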

Other observations

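Genes of the same arm that are not on the list also had large shifts, given here as values of genes chosen after they were seen. LCP1, an actin-bundling protein best known from blood cells, stood at 15.4 CPM in LNCaP and 7.69 in LNCaP-ENZ48, compared with 5.14 in RES-A and 41.2 in RES-B, so that the resistant lines lay on either side of the parental libraries. CAB39L, a scaffold of the kinase LKB1, stood at 22.4, 14.99, 3.99 and 16.7 CPM, with RES-A the lowest. DNAJC3, an inhibitor of the stress kinase PERK, stood at 34.5, 36.6, 22.9 and 78.5 CPM. Beyond FARP1, EFNB2, a membrane ligand of Eph receptors, stood at 20.9, 16.2, 8.74 and 36.4 CPM, and ATP11A, a flippase of membrane lipids, at 14.98, 22.4, 10.3 and 76.9 CPM. In DNAJC3, EFNB2 and ATP11A RES-A was the lowest and RES-B the highest of the 4 libraries. Some unlisted genes were not lowest in RES-A: RB1 and DLEU2 were at log2 ratios to LNCaP of 0.09 and 0.58 there.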
